A study of Danio rerio with 16 samples.

Results

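The miRNAs miR-126, miR-143, miR-145, miR-199, miR-214, miR-221 and miR-222 are known from the endothelium, smooth muscle and connective tissue cells of vessels and stroma, and their levels are described here in zebrafish liver. The list of numbers was set with earlier results of these data known. Every miRNA in the scanner files called dre-miR- followed by one of them was taken, with or without a letter, arm or version suffix. This gave 11 of the 248 miRNAs on the array, with 660 of its 14880 miRNA spots. Livers came from adult female zebrafish that were kept for 7 days in 4 aquaria, 1 for each group. The FED group was given food and no fluoxetine (FLX), the FAST group neither, the FED/FLX group food with FLX at 540 ng/L in the water, and the FAST/FLX group FLX at 540 ng/L without food. Each group had 4 samples of 2 pooled livers, and each sample was hybridized to 1 of 16 single-colour arrays. FLX is a serotonin reuptake inhibitor that reaches surface waters with sewage, and the study asked whether its effect on liver miRNAs resembles that of fasting. Since a group was 1 tank, the effects of the tank and of the treatment cannot be told apart, and p-values measure only the spread between samples of a tank.

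A miRNA is a short RNA that pairs with messenger RNAs and lowers their translation or stability. The miR-126 family is characteristic of endothelial cells, which line vessels, and in zebrafish miR-126 is required for vessel integrity. The miR-143 and miR-145 pair is characteristic of smooth muscle, where in mammals both miRNAs help to keep the contractile state. In mammals miR-199 and miR-214 are made from one transcript antisense to a dynamin gene and mark mesenchymal cells, among them the stellate cells of the liver. The miR-221 and miR-222 pair acts in endothelial and smooth muscle cells, and in zebrafish miR-221 is required for the tip cells that lead new vessels. In an annotation of a newer zebrafish assembly, 10 of the 11 hairpin genes looked up were found by name, and mir143 was not matched. In it mir126b lies inside egfl7, a gene for a protein secreted by endothelium. The 3 mir199 genes lie inside dnm1a, dnm2a and dnm3a, the first also inside rabepk, and mir214a is the neighbour of the mir199 gene in dnm3a. The genes of miR-221 and miR-222a neighbour each other. The same tissue was measured as a whole, so fewer cells of a type and less RNA per cell cannot be told apart.

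Signals were read as log2 RMA values, a scale on which a difference of 1 is a doubling, and the values of different miRNAs are not compared with each other since each probe binds with its own strength. Detection on an array required that, for any probe sequence of the miRNA, at least 50% of usable spots lay well above background. Of the 11 miRNAs, 6 were detected on all 16 arrays, which were dre-miR-126a-3p, dre-miR-126b-3p, dre-miR-143, dre-miR-145, dre-miR-199-3p and dre-miR-199-5p. dre-miR-126a-5p and dre-miR-214 were detected on 15 arrays, dre-miR-222a on 13 and dre-miR-221 on 12. dre-miR-222b was detected on none, and its values of 2.31 to 2.96 are those of spots not well above background. In the whole set, 64 of 248 miRNAs met this rule on each of the 16 arrays. dre-miR-126a-5p, dre-miR-143, dre-miR-199-3p and dre-miR-221 were each carried by 1 probe sequence, and no other probe sequence of theirs was detected on any array.

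The arrays lay on 2 slides, each with 2 arrays of every group, and arrays of both FLX groups lay in slide columns 2 and 4 while the others lay in columns 1 and 3, so FLX and slide column cannot be told apart. Between 79 and 107 miRNAs were detected per array. The number was 81 to 89 in FED, 86 to 97 in FAST, 79 to 102 in FED/FLX and 97 to 107 in FAST/FLX. dre-miR-122, the main hepatocyte miRNA, was detected on all arrays, with group means between 12.03 and 12.33. Its SD was 0.090 in FED, 0.120 in FAST, 0.395 in FED/FLX and 0.004 in FAST/FLX. Of 7 miRNAs of skeletal and heart muscle, 6 were detected on no array, and dre-miR-133b-3p only on FED 2. The summed linear level of that list was 85.0 on FED 2 and 30.4 to 40.5 on the other 15 arrays. All 3 nerve and all 5 egg and embryo miRNAs were detected on no array. Of 7 blood and immune miRNAs, 4 were found on each of the 16 arrays. A table of normalized values that the authors also deposited disagrees with the scanner files on which sample is which. Of its 16 columns, 14 held the values of a scan filed under another sample, in 12 cases of another group. Which of the 2 assignments is right could not be settled, and the groups below are those of the scanner files.

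**Figure D1:**
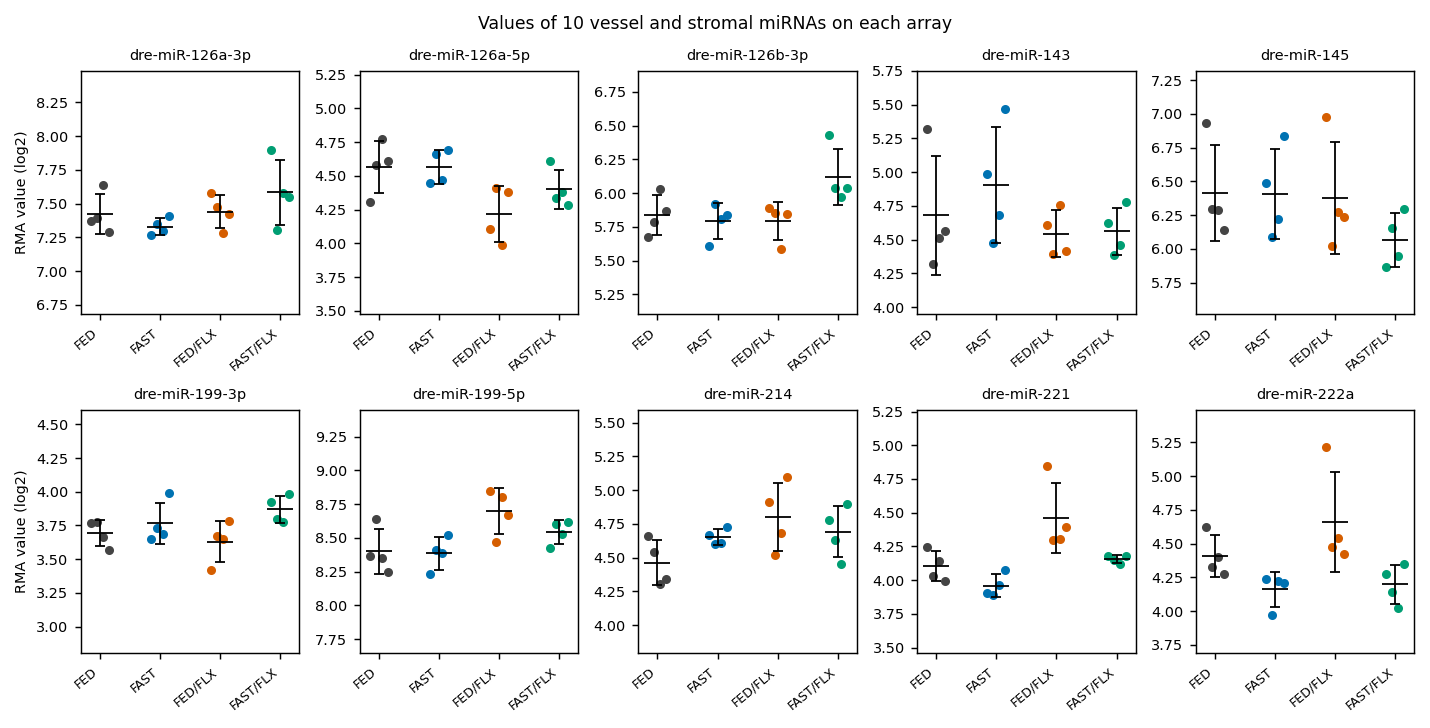
Log2 RMA value of 10 of the 11 miRNAs (the never detected dre-miR-222b is left out) on each of the 16 arrays, by group; points are arrays in replicate order, black lines the group mean and SD (n = 4); the vertical axes differ in level and are equal in span. dre-miR-221 in FED/FLX (4.29 to 4.85) lay above all arrays of FED (4.00 to 4.25), while dre-miR-143 and dre-miR-145 spread widely within FED and FAST.

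dre-miR-126a-3p and dre-miR-126b-3p, the endothelial miRNAs detected on every array, had similar values in FED, FAST and FED/FLX and their highest means in FAST/FLX. This did not hold for the first probe sequence of dre-miR-126a-3p, whose mean was 6.96 in FED and 6.90 in FAST/FLX. dre-miR-126a-3p had values of 7.37, 7.39, 7.64 and 7.29 in FED and of 7.27, 7.35, 7.30 and 7.41 in FAST. Its values were 7.58, 7.48, 7.28 and 7.42 in FED/FLX and 7.90, 7.31, 7.58 and 7.55 in FAST/FLX. The FAST/FLX arrays were spread the most, and the ranges of all 4 groups overlapped. dre-miR-126b-3p had values of 5.67, 5.78, 6.03 and 5.87 in FED and of 5.61, 5.92, 5.81 and 5.84 in FAST. Its values were 5.89, 5.85, 5.58 and 5.84 in FED/FLX and 6.43, 6.04, 5.97 and 6.04 in FAST/FLX. All FAST/FLX arrays lay above all FAST and all FED/FLX arrays, and the array FAST/FLX 1 was the highest of the 16 for both miRNAs.

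dre-miR-126a-5p, the arm opposite dre-miR-126a-3p in the same hairpin, had its lowest values in FED/FLX. They were 4.11, 4.41, 3.98 and 4.38, against 4.31, 4.58, 4.78 and 4.61 in FED. In FAST they were 4.45, 4.66, 4.47 and 4.69, and in FAST/FLX 4.61, 4.33, 4.38 and 4.28. FED/FLX overlapped with FED only through the array FED 1, which lay below 2 of the 4 FED/FLX arrays. Its detected probe sequence was well above background at 36.7% and 55.6% of spots on the arrays FED/FLX 4 and FED/FLX 1 and at 86.2% to 100% on the other 14 arrays.

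With the 4 groups pooled, the smooth muscle miRNAs varied more between arrays of a group than the other members did. dre-miR-143 had values of 5.32, 4.32, 4.51 and 4.57 in FED and of 4.99, 4.48, 4.68 and 5.46 in FAST. Its values were 4.61, 4.39, 4.76 and 4.42 in FED/FLX and 4.62, 4.39, 4.46 and 4.78 in FAST/FLX. FED 1 and FAST 4 were the highest, and the 4 groups overlapped. dre-miR-145 had values of 6.93, 6.29, 6.29 and 6.14 in FED and of 6.49, 6.09, 6.22 and 6.83 in FAST. Its values were 6.98, 6.02, 6.27 and 6.24 in FED/FLX and 5.86, 6.15, 5.94 and 6.30 in FAST/FLX. FED 1, FAST 4 and FED/FLX 1 stood above the rest, and no FAST/FLX array reached them. The pooled SD within groups was 0.331 for dre-miR-143 and 0.335 for dre-miR-145, against 0.129 to 0.223 for the other 9 members and a median of 0.190 over the 64 miRNAs detected on all arrays. Of these 64, 12 had a larger SD than dre-miR-143 and 11 a larger SD than dre-miR-145. The wide spread was not found in every group. The SD of dre-miR-143 was 0.439 in FED and 0.430 in FAST, but 0.172 in FED/FLX and 0.174 in FAST/FLX. That of dre-miR-145 was 0.355 in FED, 0.331 in FAST, 0.416 in FED/FLX and 0.198 in FAST/FLX. In FAST/FLX dre-miR-126a-3p (0.244) and dre-miR-126b-3p (0.210) had larger SDs than both.

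Of the mesenchymal miRNAs, dre-miR-199-5p and dre-miR-214 had their highest means in FED/FLX. dre-miR-199-5p had values of 8.36, 8.64, 8.35 and 8.24 in FED and of 8.23, 8.41, 8.39 and 8.52 in FAST. Its values were 8.85, 8.47, 8.80 and 8.67 in FED/FLX and 8.42, 8.60, 8.53 and 8.62 in FAST/FLX. FED/FLX and FED overlapped through FED 2 and FED/FLX 2 alone. dre-miR-199-3p, from the opposite arm, lay between 3.42 and 3.99 on all arrays. These values mix its 1 detected probe sequence, at 5.32 to 5.94, with others detected on no array, and so lie near background. For the detected sequence alone the difference was -0.02 in FAST against FED, where all spots gave 0.07. In FED/FLX against FED it was 0.02, where all spots gave -0.06. The sign was the same for both in the comparisons of FAST/FLX. There the detected sequence gave 0.28 against FED, 0.30 against FAST and 0.26 against FED/FLX. All spots gave 0.18, 0.11 and 0.24 in the same order.

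dre-miR-214 was close to background in FED. It had values of 4.66, 4.54, 4.31 and 4.34 there, of 4.67, 4.60, 4.60 and 4.73 in FAST, of 4.91, 4.52, 4.68 and 5.10 in FED/FLX and of 4.78, 4.63, 4.45 and 4.89 in FAST/FLX. FED had the 2 lowest arrays of the 16, and its other 2 lay within the range of the FLX groups. The share of its spots well above background was 12.1% to 57.6% in FED (median 26.3%) and 67.2% to 89.7% in FAST (median 72.5%). In FED/FLX the share was 66.1% to 100% (median 92.2%) and in FAST/FLX 71.2% to 100% (median 99.1%). No FED array reached the lowest share of the other groups, a count that also depends on each array's background.

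The vessel growth pair had its highest values in FED/FLX. dre-miR-221 had values of 4.25, 4.03, 4.14 and 4.00 in FED and of 3.91, 3.89, 3.97 and 4.07 in FAST. Its values were 4.85, 4.29, 4.30 and 4.40 in FED/FLX and 4.18, 4.15, 4.12 and 4.18 in FAST/FLX. All FED/FLX arrays lay above all 12 others. dre-miR-221 was detected on 2 of 4 arrays in FED, 2 of 4 in FAST, 4 of 4 in FED/FLX and 4 of 4 in FAST/FLX. Detection of all miRNAs differed too, with 81 to 89 on the FED arrays, 79 to 102 on FED/FLX and 97 to 107 on FAST/FLX. dre-miR-222a had values of 4.62, 4.33, 4.40 and 4.28 in FED and of 4.24, 3.97, 4.23 and 4.21 in FAST. Its values were 5.21, 4.47, 4.54 and 4.42 in FED/FLX and 4.27, 4.14, 4.02 and 4.35 in FAST/FLX. Every FED/FLX array lay above every FAST and FAST/FLX array, and FED 1 fell inside the FED/FLX range. dre-miR-222a was detected on 3 of 4 arrays in FED, 3 of 4 in FAST, 3 of 4 in FED/FLX and 4 of 4 in FAST/FLX. The FED/FLX array without detection was FED/FLX 4, where 10.3% of spots of its second probe sequence were well above background.

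**Figure D2:**
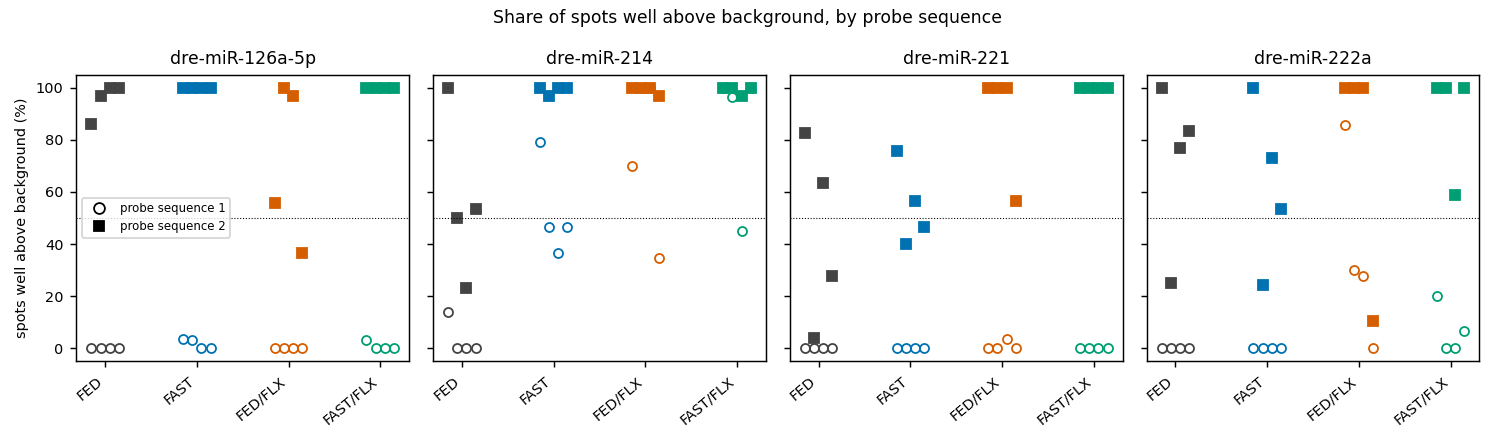
Percentage of usable spots well above background on each array, by group, for the 2 probe sequences (open circles and filled squares) of each of 4 dim miRNAs; the dotted line marks the 50% used for detection. The second probe sequence of dre-miR-221 was detected on 2 of 4 arrays of FED, 2 of 4 of FAST and all 8 FLX arrays, and its first on none. Such counts also depend on each array's background.

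FAST was set against FED to give the effect of 7 days without food. Of the 11 miRNAs, 0 passed limma's test at an adjusted p under 0.05, and 0 had an unadjusted p under 0.05. Over all 248 miRNAs the share that passed was 0% too, and 11.7% had an unadjusted p under 0.05. The largest difference was that of dre-miR-222a, at -0.25 (95% interval -0.57 to 0.07, limma adjusted p = 0.542), with all 4 FAST arrays below all 4 FED arrays. It was the only member whose groups did not overlap, which is 9.09% of the 11, while 8.47% of all miRNAs did not overlap. The median difference of the 11 was -0.01, that of all 248 was 0.00, and the intervals of dre-miR-126a-3p (-0.33 to 0.14), dre-miR-126b-3p (-0.28 to 0.19) and dre-miR-199-5p (-0.23 to 0.20) allowed changes of no more than 0.33 either way. The intervals of dre-miR-143 (-0.24 to 0.69) and dre-miR-145 (-0.48 to 0.46) were wider.

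**Figure D3:**
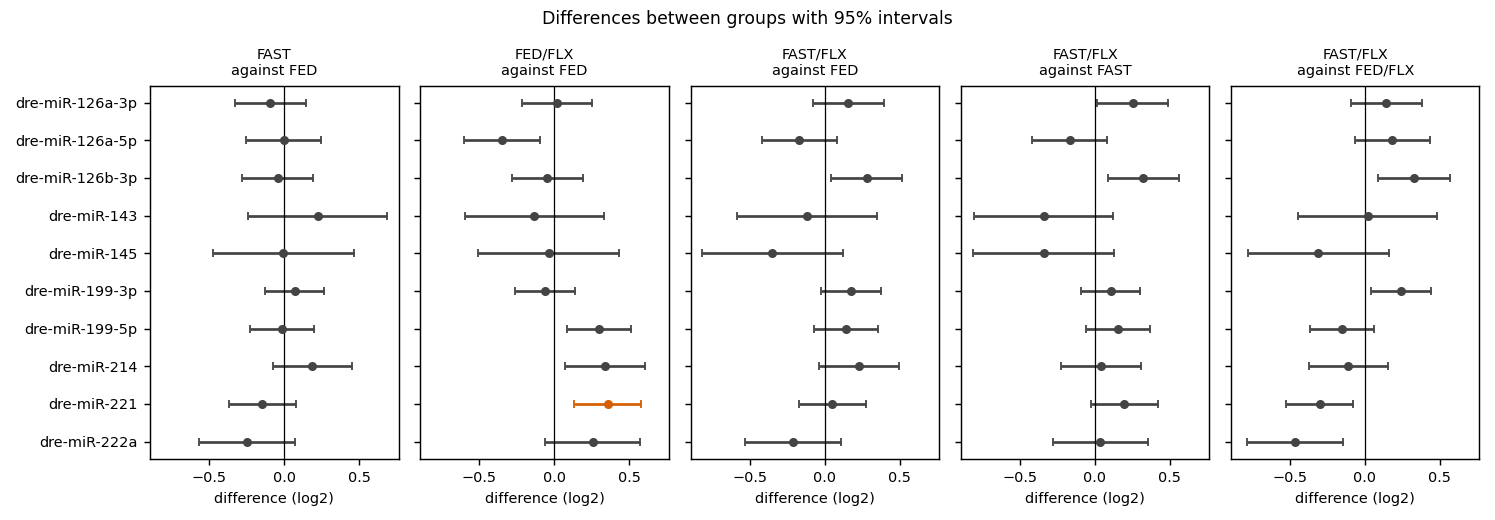
Difference in log2 RMA value (first group minus second) with its 95% interval from limma, for 10 miRNAs in 5 comparisons of 4 arrays against 4; the coloured point passed an adjusted p under 0.05 over all 248 miRNAs. Only dre-miR-221 in FED/FLX against FED passed, at 0.36, and every difference was under 1, a doubling.

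FED/FLX was set against FED to give the effect of FLX in fish with food, and dre-miR-221 was the 1 member that passed, being higher in FED/FLX by 0.36 on the log2 scale, or 1.28-fold (SE 0.10, 95% interval 0.13 to 0.58, limma adjusted p = 0.0426). It was detected on 2 of the 4 FED arrays, so the fold rests in part on FED values not well above background. By the exact two-sided permutation test all 4 arrays against all 4 gave p = 0.0286, the smallest that such groups allow. The share of all 248 miRNAs that passed in this comparison was 12.9%, and 8.87% passed and were higher, so 1 of 11 is near that share. Of the 64 miRNAs detected on all arrays, 13 passed and were higher and 7 passed and were lower. 1 member did not overlap between the groups (9.09%), against 12.1% of all miRNAs. None of the 11 passed with a change of at least 2-fold, as 0.403% of all miRNAs did.

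The difference of dre-miR-221 was 0.39 for its detected probe sequence alone (its other probe sequence was detected on no array). For that sequence FED/FLX 3 (4.7937) lay just below FED 1 (4.7938), so the groups overlapped. The exact permutation test then gave p = 0.0571, and the limma adjusted p was 0.0608. With all spots the difference was positive on both slides (0.43 and 0.28). It was positive under 11 other settings of the processing (0.12 to 0.54) but passed the test under only 5 of them. Without the array FED/FLX 1, the highest of all, it was 0.23 (limma adjusted p = 0.0611). Of the 16 arrays left out in turn, it passed without 5 only, which were FED 1, FAST 4, FED/FLX 2, FED/FLX 3 and FED/FLX 4. It did not pass without FED 2, FED 3 or FED 4 (limma adjusted p of up to 0.102), without FAST 1, FAST 2 or FAST 3, or without any 1 of the FAST/FLX arrays, since the groups share 1 estimate of the spread.

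dre-miR-126a-5p, dre-miR-199-5p and dre-miR-214 had an unadjusted p under 0.05 in this comparison and did not pass after adjustment. The difference of dre-miR-126a-5p was -0.35 (95% interval -0.60 to -0.10, limma adjusted p = 0.0701). That of dre-miR-199-5p was 0.30 (0.08 to 0.51, limma adjusted p = 0.0701), and that of dre-miR-214 was 0.34 (0.07 to 0.60, limma adjusted p = 0.0910). Each kept its sign under the 11 other settings, and with dre-miR-221 they made 4 members of 11 with an unadjusted p under 0.05. Of all miRNAs 23.4% had such a p, and of the 64 detected on all arrays 29 had. dre-miR-222a, whose gene neighbours that of dre-miR-221, differed by 0.25 (-0.06 to 0.57, limma adjusted p = 0.381), and by 0.07 without the array FED/FLX 1. dre-miR-126a-3p (0.02, interval -0.22 to 0.25) and dre-miR-126b-3p (-0.05, interval -0.29 to 0.19) lay near 0. The 3 probe sequences of dre-miR-126a-3p did not go the same way, with -0.16, 0.08 and 0.14. The median difference of the 11 was 0.02 and that of all 248 was 0.01.

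Markers of other cells were summed in the same groups. The summed linear level of 12 miRNAs of epithelium and pancreas was 418 to 561 in FED (median 540). It was 221.5 to 352 in FED/FLX (median 279), 337 to 428 in FAST (median 373.5) and 286 to 475 in FAST/FLX (median 321). The lower median was therefore not particular to FED/FLX, and a linear sum gives most weight to its brightest members. In FED/FLX against FED, 3 of the 12 had positive and 9 negative log2 differences, with a median of -0.16 and a lowest of -1.74. Of the 12, 1 passed limma's test and was lower, 3 were found on every array and 5 were never found. For 7 blood and immune miRNAs the sum was 487 to 905 in FED (median 838). In FED/FLX it was 749 to 1593 (median 1047), a range that overlaps with that of FED. 2 of these 7 had positive and 5 negative differences, with a median of -0.29, and 0 passed limma's test, with 1 at an unadjusted p under 0.05. The same sum over the 3 miR-126 members was 237 to 292 in FED and 220 to 267 in FED/FLX, which overlap. For 4 miRNAs of liver cells, dre-miR-122 among them, the sum was 5020 to 5648 in FED and 3563 to 6225 in FED/FLX. 2 of these 4 had positive and 2 negative differences, with a median of -0.21, a lowest of -0.51 and a highest of 0.09. Of the 4, 1 passed limma's test and was lower, as 4.03% of all miRNAs did, and 2 had an unadjusted p under 0.05. The part of these cells in the values of the 11 miRNAs was not tested.

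FAST/FLX against FED sets both treatments together against the control. Of the 11 miRNAs 0 passed limma's test and 2 had an unadjusted p under 0.05, while of all miRNAs 4.84% passed and 16.1% had such a p. Of the 64 detected on all arrays 19 had such a p. dre-miR-126b-3p had the smallest adjusted p, with a difference of 0.28 (95% interval 0.04 to 0.52, limma adjusted p = 0.218), and of 0.18 without the array FAST/FLX 1. 2 members did not overlap between the groups (18.2%, against 16.5% of all miRNAs), and they were dre-miR-199-3p (0.18, interval -0.02 to 0.37) and the undetected dre-miR-222b. dre-miR-145 had a difference of -0.35 with an interval of -0.82 to 0.12, and of -0.17 without the array FED 1. dre-miR-221 had one of 0.05 (-0.17 to 0.28), and that of dre-miR-222a was -0.21 (-0.53 to 0.11), or -0.14 without FED 1. The median of the 11 was 0.14, that of all 248 was 0.01, and that of the 64 miRNAs detected on all arrays was 0.13.

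FAST/FLX against FAST gives the effect of FLX in fish without food. 0 members passed limma's test and 3 had an unadjusted p under 0.05, while of all miRNAs 6.45% passed and 16.9% had such a p. Of the 64 detected on all arrays 23 had such a p. dre-miR-126b-3p differed by 0.32, or 1.25-fold (95% interval 0.09 to 0.56, limma adjusted p = 0.132), and dre-miR-126a-3p by 0.25 (0.02 to 0.49, limma adjusted p = 0.261). Without the array FAST/FLX 1 the difference of dre-miR-126a-3p was 0.15 (limma adjusted p = 0.576). Both differences were positive under the 11 other settings. The 3 probe sequences of dre-miR-126a-3p gave 0.07, 0.29 and 0.32. 3 members did not overlap, all with FAST/FLX above FAST, which is 27.3% against 12.9% of all miRNAs. They were dre-miR-126b-3p, dre-miR-221 (0.20, interval -0.03 to 0.42), detected on 2 of 4 FAST arrays, and dre-miR-222b, detected on no array. dre-miR-143 and dre-miR-145 both had differences of -0.34, with intervals of -0.80 to 0.12 and -0.81 to 0.13, and of -0.15 and -0.20 without the array FAST 4.

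FAST/FLX against FED/FLX gives the effect of fasting in fish with FLX. 0 members passed limma's test and 4 had an unadjusted p under 0.05, while of all miRNAs 1.61% passed and 11.7% had such a p. Of the 64 detected on all arrays 16 had such a p. dre-miR-222a differed by -0.46, or 1.38-fold, the largest difference of any member in these 5 comparisons (95% interval -0.78 to -0.15, limma adjusted p = 0.183). On the array FED/FLX 4 this miRNA was not detected. Without the array FED/FLX 1 the difference was -0.28 (limma adjusted p = 0.404). dre-miR-221 differed by -0.30 (-0.53 to -0.08, limma adjusted p = 0.234), and by -0.17 without the same array (limma adjusted p = 0.440). The difference was 0.33 for dre-miR-126b-3p (0.09 to 0.57, limma adjusted p = 0.234) and 0.24 for dre-miR-199-3p (0.04 to 0.44, limma adjusted p = 0.310). The signs of these 4 held under the 11 other settings. dre-miR-222a, dre-miR-221 and dre-miR-126b-3p did not overlap between the groups, which is 27.3% of the members against 5.24% of all miRNAs.

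The interaction asks whether the effect of FLX differed between fish without and with food. 0 members passed limma's test and 1 had an unadjusted p under 0.05, while of all miRNAs 1.61% passed and 12.9% had such a p. Of the 64 detected on all arrays 19 had such a p. The 1 member was dre-miR-126b-3p, for which the effect of FLX was larger without food by 0.37 (95% interval 0.03 to 0.71, limma adjusted p = 0.310). For dre-miR-221 the interaction was -0.16 (-0.47 to 0.16, limma adjusted p = 0.652), so its effect of FLX was not shown to differ between fed and fasted fish. For dre-miR-126a-5p it was 0.18 (-0.17 to 0.54), and for dre-miR-214 it was -0.30 (-0.67 to 0.08). The FED, FAST and FLX comparisons above share arrays, and their values are therefore not independent of each other.

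**Figure D4:**
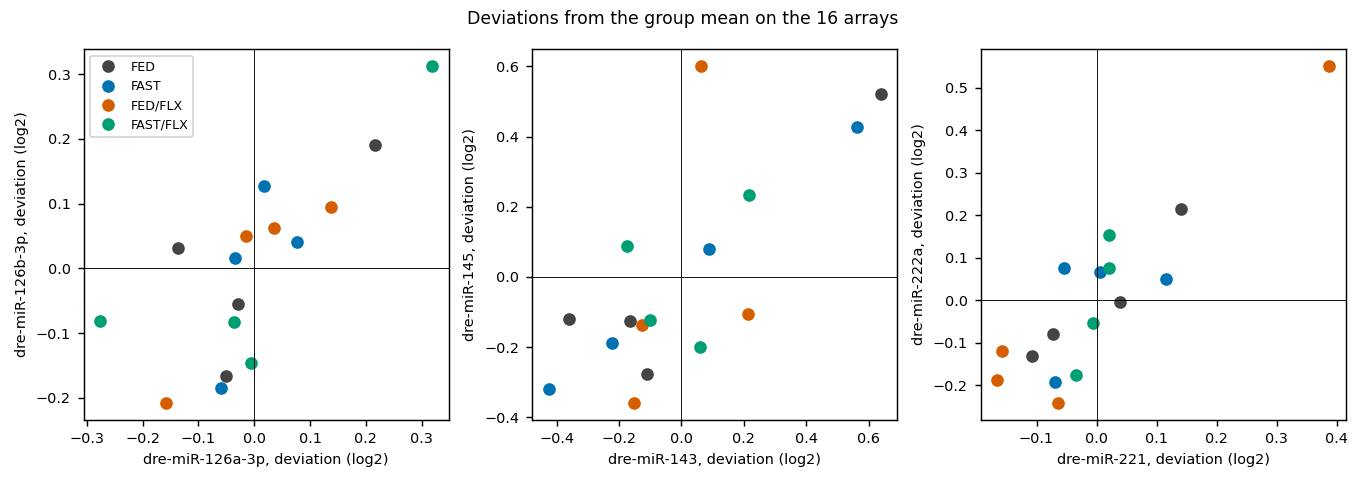
Deviation of each array from its group mean (log2) for 3 pairs of miRNAs, coloured by group (16 arrays). Pearson's r was 0.766 for dre-miR-126a-3p with dre-miR-126b-3p, 0.736 for dre-miR-143 with dre-miR-145 and 0.892 for dre-miR-221 with dre-miR-222a; the last rests in part on the array FED/FLX 1 at the upper right.

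Members of a cluster, hairpin or family were then followed across the 16 arrays after each group's mean was taken away. 7 pairs were computed, and p-values were adjusted over them. Among 1653 pairs of the 58 other miRNAs that were detected on all arrays, r had a median of -0.01 and quartiles of -0.32 and 0.31. Of these pairs 3.99% had an r of at least 0.7, a background that the permutation p-values do not take into account. dre-miR-126a-3p and dre-miR-126b-3p, related miRNAs of 2 genes, had r = 0.766 (permutation p = 0.00048, adjusted 0.00168) and rho = 0.806 (permutation p = 0.00022, adjusted 0.00154). Without the arrays FAST/FLX 1 and FAST/FLX 2, the farthest from the median, r was 0.706 (permutation p = 0.0042), and within the slides it was 0.796 and 0.707. Whether the probes of these related miRNAs share signal was not tested. The arms dre-miR-126a-3p and dre-miR-126a-5p had r = 0.578 (permutation p = 0.0172, adjusted 0.0301) and rho = 0.677 (permutation p = 0.00509, adjusted 0.0119). Without the same 2 arrays r was 0.532 (permutation p = 0.0495), and within the slides it was 0.503 and 0.727. The relation of the arms depended on the processing. Under 11 other settings r was 0.186 to 0.940 (adjusted permutation p of up to 0.573), and it was 0.186 with group means not removed. With 1 array left out it was 0.453 to 0.686 (adjusted permutation p of up to 0.137).

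dre-miR-221 and dre-miR-222a, neighbours in the genome, had r = 0.892 (permutation p = 7e-05, adjusted 0.00049) and rho = 0.762 (permutation p = 0.00104, adjusted 0.00364). Without FED/FLX 1 and FED 1 r was 0.662 (permutation p = 0.0105), and within the slides it was 0.956 and 0.658. dre-miR-143 and dre-miR-145 had r = 0.736 (permutation p = 0.00159, adjusted 0.00371) and rho = 0.635 (permutation p = 0.00963, adjusted 0.0169). Without FED 1 and FAST 4 r was 0.508 (permutation p = 0.0624), so that its size depends on those 2 arrays, and within the slides r was 0.701 and 0.885. On FED 2, the only array where dre-miR-133b-3p was detected, dre-miR-143 was 4.32, the lowest of all 16. dre-miR-145 was 6.29 there, within the range of the other FED arrays. The part of muscle cells in these values was not tested.

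The mesenchymal miRNAs did not follow each other to this degree. dre-miR-199-5p and dre-miR-214 had r = 0.351 (permutation p = 0.184, adjusted 0.214) and rho = 0.335 (permutation p = 0.206, adjusted 0.240). Without FED 2 and FED/FLX 2 r was 0.121 (permutation p = 0.678), and within the slides it was 0.465 and 0.281. dre-miR-199-3p and dre-miR-214 had r = 0.447 (permutation p = 0.0823, adjusted 0.115) and rho = 0.462 (permutation p = 0.0735, adjusted 0.103). Within the slides this r was -0.01 and 0.788, and without FED/FLX 1 and FAST 4 it was 0.660 (permutation p = 0.0113). The arms dre-miR-199-3p and dre-miR-199-5p had r = 0.186 (permutation p = 0.489, adjusted 0.489) and rho = 0.212 (permutation p = 0.430, adjusted 0.430). Within the slides it was -0.17 and 0.679, and without FED/FLX 1 and FAST 4 it was 0.292 (permutation p = 0.313). The values of dre-miR-199-3p in these pairs lie near background, since most of its probe sequences were not detected.

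For the 4 members above background at most of their spots on every array, the 2 miRNAs of most similar course over the 16 arrays were sought among 45 others. The measure was the root mean square difference after each miRNA's own mean was taken away. For dre-miR-126a-3p they were dre-miR-338 (0.137) and dre-miR-30c (0.146), and for dre-miR-126b-3p the same (0.162 and 0.171). For dre-miR-145 they were dre-miR-739_v12.0 (0.213) and dre-miR-23b (0.261), and for dre-miR-199-5p dre-miR-22a (0.153) and dre-miR-30e-3p (0.164). The SD of these members over the 16 arrays was 0.170, 0.201, 0.335 and 0.181, in the same order.

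34 other miRNAs linked with vessels or stroma were counted beside the 11. In FAST against FED, 0 of the 34 passed limma's test, with 2 at an unadjusted p under 0.05. In FED/FLX against FED, 5 of the 34 were higher and 2 lower, while 8.87% of all 248 miRNAs were higher and 4.03% lower. Of the 64 miRNAs detected on all arrays, 13 were higher and 7 lower. Among the higher of the 34 were dre-miR-100 (0.61), dre-miR-125b (0.52) and dre-miR-130a (0.35), and the lower were dre-miR-152 (-0.69) and dre-miR-29b (-0.50). The other 2 that were higher, dre-miR-130b and dre-miR-10a-5p, were detected on 1 and 0 of the 16 arrays. dre-miR-130a was also the 1 miRNA of the list that was higher in FAST/FLX against FED (0.52), as 4.03% of all miRNAs and 6 of those 64 were. In FAST/FLX against FAST, dre-miR-29a (0.54) and dre-miR-29b (0.54), which in mammals lower collagen messages, were higher, and dre-miR-10d-3p, detected on no array, was lower. Of all miRNAs 2.82% were higher there and 3.63% lower, and of those 64 detected on all arrays 5 were higher and 5 lower. Both miR-29 members were also higher in FAST/FLX than in FED/FLX (0.61 and 0.73, with 0.806% of all miRNAs and 2 of those 64 higher) and had an interaction that passed (0.86 and 1.04). The median of the 34 lay between -0.0030 and 0.11 in the 5 comparisons.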

How the data were processed

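Total RNA labelled with Cy3 was hybridized by the authors to custom zebrafish miRNA arrays, which they scanned and read with Agilent Feature Extraction 11.0.1.1. The deposited scanner files hold intensities per spot after subtraction of background by that software. The log2 values that the authors deposited as a table were used only to check which scan each column held, within 0.001. No spot was saturated, and the software marked 267 to 641 spots per array as outliers.

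The members and lists were chosen with earlier results of these data known. RMA values came from limma 3.58.1 in R 4.3.3. The intensities were corrected with the normexp model (rma75), spots marked as outliers were left out, and arrays were quantile normalized, brought to log2 and summarised for each miRNA from its 60 spots by median polish (20 iterations at most). Usable spots are those without an outlier mark. All 248 miRNAs were fitted in limma with 1 mean per group over 16 arrays, and p-values were adjusted by Benjamini-Hochberg within each comparison, with 0.05 as the threshold. Single values were compared by exact permutation and pairs by 100000 permutations, both two-sided. Arrays have no read depth, and their number limits the precision. The steps were tested on simulated data. Python 3.11.15, numpy 2.4.6, pandas 2.3.3, scipy 1.17.1 and matplotlib 3.10.9 were used for the pairs and figures.

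All members are named in the text. Values per array are given for members with at least 50% of all spots well above background on at least 4 arrays, and the others are given by range. 5 of the 7 pairs met the detection rule only when detection was judged for each probe sequence, a rule added after the data were seen. Hairpin genes and neighbours come from RefSeq's GRCz12tu annotation, a build other than that of the scanner files. Its coordinates were used only to find the genes that enclose or neighbour a hairpin. Mature sequences were not used here.

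Whether replicate numbers pair arrays was checked by correlating the deviations of same-numbered arrays from their group means. All 4 correlations were over 0.1 for FED and FAST (0.193, 0.265, 0.204 and 0.113), whose same-numbered arrays share a slide and a column. Those of FED/FLX and FAST/FLX share them too, and their correlations were -0.174, -0.133, -0.172 and 0.168. Whether the numbers pair samples is therefore not settled, and the fit with the replicate number as a block was an alternative to the unpaired one reported. For the 5 combinations of groups other than FED and FAST, 0 to 2 of 4 exceeded 0.1. The alternatives were other scalings, background corrections, summaries, filters and thresholds, the slide or replicate as a block, and each array left out.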

Additional observations from a re-analysis of the deposited data

Results flagged for a closer look

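In 44 groups of 4 arrays, 4 had an array whose gap to its nearest neighbour took more of the group's range than Dixon's limit allows, and chance flags about 1 in 20. For dre-miR-126b-3p the array FED/FLX 3 was low, at 5.584 against 5.842 for the nearest array of its group. The array FAST/FLX 1 was high for the same miRNA, at 6.432 against 6.038 for the nearest. For dre-miR-222a the array FAST 2 was low, at 3.968 against 4.211 for the nearest, and the array FED/FLX 1 was high, at 5.213 against 4.542 for the nearest.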

How the results depend on the processing

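Of 1342 differences of single members under the alternatives, 1208 kept their direction and side of the threshold, 10 lost the threshold and 19 gained it. The other 105 changed sign or were exactly 0, as some of the undetected dre-miR-222b were. Of these 105, 104 passed the test under neither setting. The remaining one was dre-miR-199-5p in FAST/FLX against FED/FLX, at 0.49 (limma adjusted p = 0.0261) with neither quantile normalization nor scaling and -0.15 as reported.

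In FED/FLX against FED the number of members that passed fell from 1 to 0 under each of the 3 scalings without quantile normalization, the total gene signal, no background correction, limma with a trend, a fit of the 2 groups alone, a 2-fold minimum and the methods' test with that minimum. It was 2 (dre-miR-126a-5p and dre-miR-199-5p) with the test limited to miRNAs detected over all their spots on all 4 arrays of some group. That rule, at least 50% of all usable spots, left out dre-miR-221, which met it on at most 3 arrays of a group. The number was 4 at an unadjusted p under 0.05, and 0 to 4 with 1 array left out, FED/FLX 2 giving the 4. It stayed at 1 with detected probe sequences alone, an alternative added after the data were seen, but was then dre-miR-126a-5p (-0.39, limma adjusted p = 0.0468) in place of dre-miR-221. In FAST/FLX against FED the number rose from 0 to 1 with the 75th percentile of detected miRNAs, to 4 without scaling, to 2 with the 75th percentile of all spots and to 2 at an unadjusted p. In FAST/FLX against FAST it rose from 0 to 1 without scaling and to 3 at an unadjusted p, in FAST/FLX against FED/FLX to 4 under each of the same, and in the interaction of fluoxetine and fasting to 1 at an unadjusted p. Without scaling the median of all 248 miRNAs in FAST/FLX was 0.10 above FED, 0.15 above FAST and 0.20 above FED/FLX, and with the 75th percentile of detected miRNAs it was 0.50, 0.12 and 0.31 below. The cause of these changes was not tested.

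For dre-miR-199-5p with dre-miR-214, r was -0.0389 with the total gene signal and 0.552 (permutation p adjusted 0.0471) with group means not removed. With the replicate block, the adjusted p of dre-miR-221 in FED/FLX against FED was 0.0369 in limma, 0 members passed in FAST against FED, and no count changed. The authors' table was not run as an alternative, because its columns do not hold the scans of the samples in their headings. Signal near background limits dre-miR-214, dre-miR-221 and dre-miR-222a in FED and FAST. It also limits dre-miR-222a in FED/FLX, where FED/FLX 4 was without detection. The 4 arrays a group limit all intervals.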
